A study of Mus musculus with 6 samples.

Results

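The genes described here build the contacts and the scaffold of the intestinal epithelium: tight junctions, adherens junctions, desmosomes, integrins, simple keratins and 5 further surface and cortex genes. The list held 41 genes, with villin 1 entered under its mouse symbol Vil1, and a gene was measured where a probe set of the array carried its symbol alone. All 41 were measured, of 18193 genes in all, each by the probe set with the highest mean log2(intensity + 16) over the 6 arrays. The arrays were hybridised with RNA from small intestinal cells with high GFP, sorted from 3 mice given DBZ and 3 mice given vehicle (DMSO) for 24 h. DBZ inhibits gamma-secretase, the protease that frees the active part of Notch receptors, and the comparison asks what the inhibition of NOTCH1 does to these cells. All mice carried the Lgr5-EGFP-IRES-creERT2 allele, in which the stem cell gene Lgr5 drives EGFP and a tamoxifen-dependent Cre. The titles place each array in its group and call it a biological replicate, whereas the descriptions mention DMSO alone, for DBZ arrays too. The labels give no sex or age of the mice.

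Tight junctions close the space between epithelial cells near their apex: claudins form barriers or pores, occludin and tricellulin join them in the membrane, and zonula occludens proteins anchor them to actin. Below them, E-cadherin and the catenins hold cells together at adherens junctions, and desmosomes tie the keratin filaments of neighbouring cells to each other. Integrins fix the basal side of the cell to laminin and collagen of the basement membrane. In the crypt these contacts persist while cells divide, change fate and move upwards.

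Most of these genes differed little between DBZ and vehicle arrays. None of the 41 rose and 2 fell, Cldn8 and Marveld2, both of the tight junction (limma, Benjamini-Hochberg adjusted p under 0.05 over all genes). That is 4.88% of the genes on the list, where 5.34% of all genes tested were called, 3.82% higher and 1.52% lower. At an unadjusted p under 0.05 stood 12 of the 41, against 26.3% of all genes. The 3 DBZ values lay all above the 3 vehicle values for 5 genes and all below them for 9, together 34.1% of the list, where the share over all genes was 33.2%. Both shares were thus near those of all genes. The median difference, DBZ minus vehicle on the log2(intensity + 16) scale, was -0.06 for the list and -0.02 for all genes tested, with 19 differences above 0 and 22 below, where 45.4% of all genes were above 0. The plot of all 41 differences shows the intervals. For 29 of the 41 the 95% interval of the difference lay within a change of 1.5-fold in either direction, a share of 70.7%, against 73.6% of all genes and 59.6% of the genes brighter than the median gene.

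**Figure D1:**
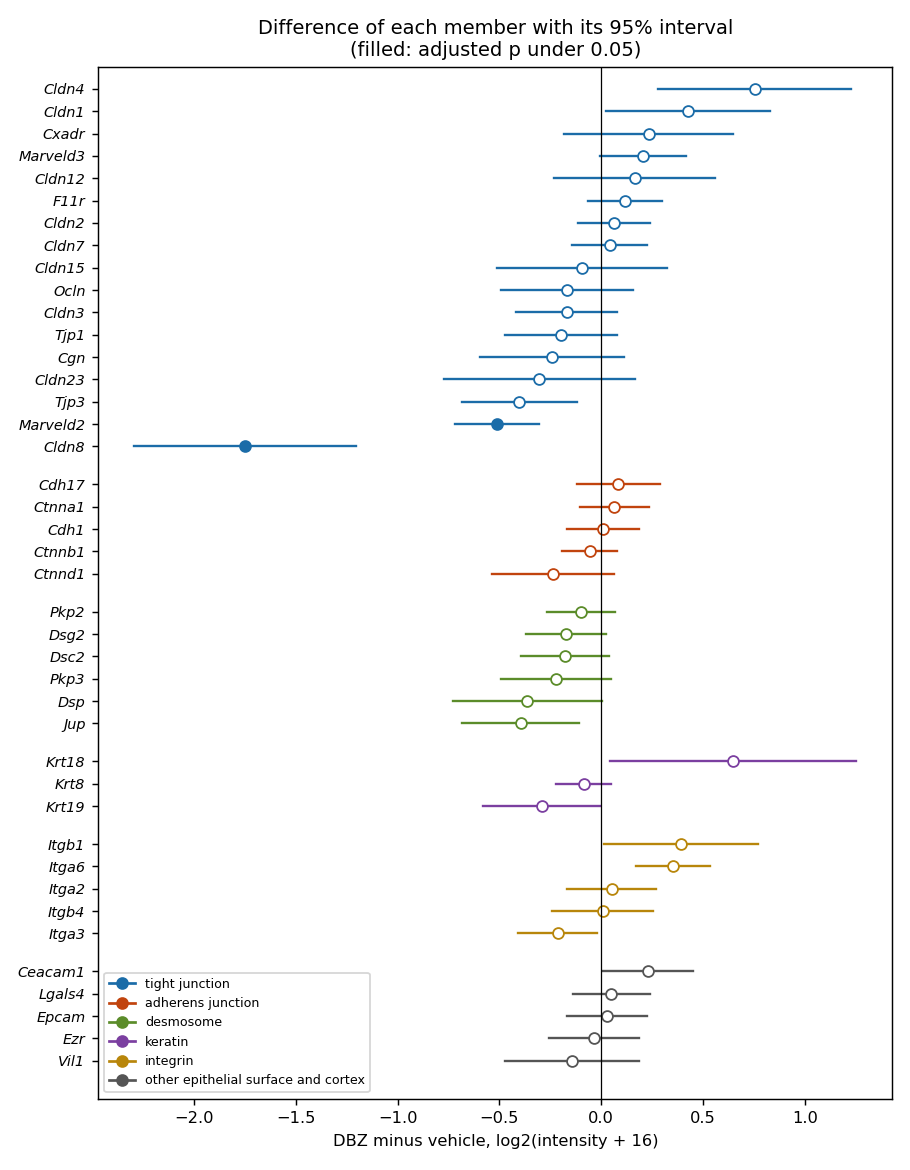
Difference between DBZ and vehicle arrays on the log2(intensity + 16) scale for each of the 41 genes, by junction group, with limma's 95% interval (n = 3 arrays per group). Filled points passed an adjusted p of 0.05: Cldn8 at -1.75 and Marveld2 at -0.51 were the ones that did.

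The probe sets of these genes were bright, and this bounds what the arrays could show. The list had a median level of 10.79 on the log2 scale, where the median gene had 7.03. For 9 genes at least 1 array gave more than 33.3% of its highest intensity, and Krt8 reached 87.0% of it. Probe sets that bright may no longer respond in proportion to RNA, so their small differences limit the change less than the intervals say. At the other end Itga2 lay below the array median of 44.9 to 46.3 units on all 6 arrays, and Cldn1 on 4 of them. The deposited values carry no detection calls. Each array measured a whole sort, so fewer cells of a type and less RNA per cell cannot be told apart in any of the results.

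The arrays were not alike in RNA quality. For the actin control probe sets, 3' signal over 5' signal was 1.53, 1.51 and 1.57 in DBZ replicates 1, 2 and 3 and 2.22, 1.61 and 1.69 in vehicle replicates 1, 2 and 3. Vehicle replicate 1, the array with the highest ratio, was the lowest vehicle array for 29 of the 41 genes, while it was the lowest for 38.7% of all genes. DBZ replicate 3 was the lowest DBZ array for 21 of the 41, against 40.0% of all genes. The part of RNA quality in the results was not tested. Without vehicle replicate 1 the median difference of the list was -0.07.

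Among the 17 tight junction genes 2 fell and 0 rose, and the median difference was -0.10. An unadjusted p under 0.05 (limma) was found for 5 of them, as for 26.3% of all genes. Cldn8 encodes a barrier-forming claudin known mainly from the colon and the kidney tubule. It had 29.0, 52.6 and 22.6 intensity units in DBZ replicates 1, 2 and 3, against 127, 153 and 171 units in vehicle replicates 1, 2 and 3. Every DBZ array lay below every vehicle array, and 2 of the 3 DBZ values were below their array's median. The log2 difference was -1.75 ± 0.22 (SE, n = 3 per group; limma, adjusted p = 0.025). Its size is loosely set at so low a level, at -2.16 when 1 was added before the logarithm and -1.13 when 64 was. Without vehicle replicate 1, 2 or 3 the adjusted p was 0.075, 0.095 and 0.093 (limma), at differences of -1.85, -1.73 and -1.66.

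Marveld2 encodes tricellulin, which seals the corners where 3 cells meet. Its values were 406, 357 and 372 units in DBZ replicates 1, 2 and 3, against 508, 599 and 534 units in vehicle replicates 1, 2 and 3. The groups did not overlap, and the difference was -0.51 ± 0.09 (SE, n = 3 per group; limma, adjusted p = 0.034). Leaving out any array other than DBZ replicate 1 ended the call: the adjusted p was 0.087 and 0.075 without DBZ replicate 2 and 3, and 0.080, 0.101 and 0.110 without vehicle replicate 1, 2 and 3 (limma). The other genes of its family stood at -0.17 ± 0.13 for occludin (Ocln) and 0.21 ± 0.09 for Marveld3 (SE; limma, adjusted p = 0.48 and 0.20).

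**Figure D2:**
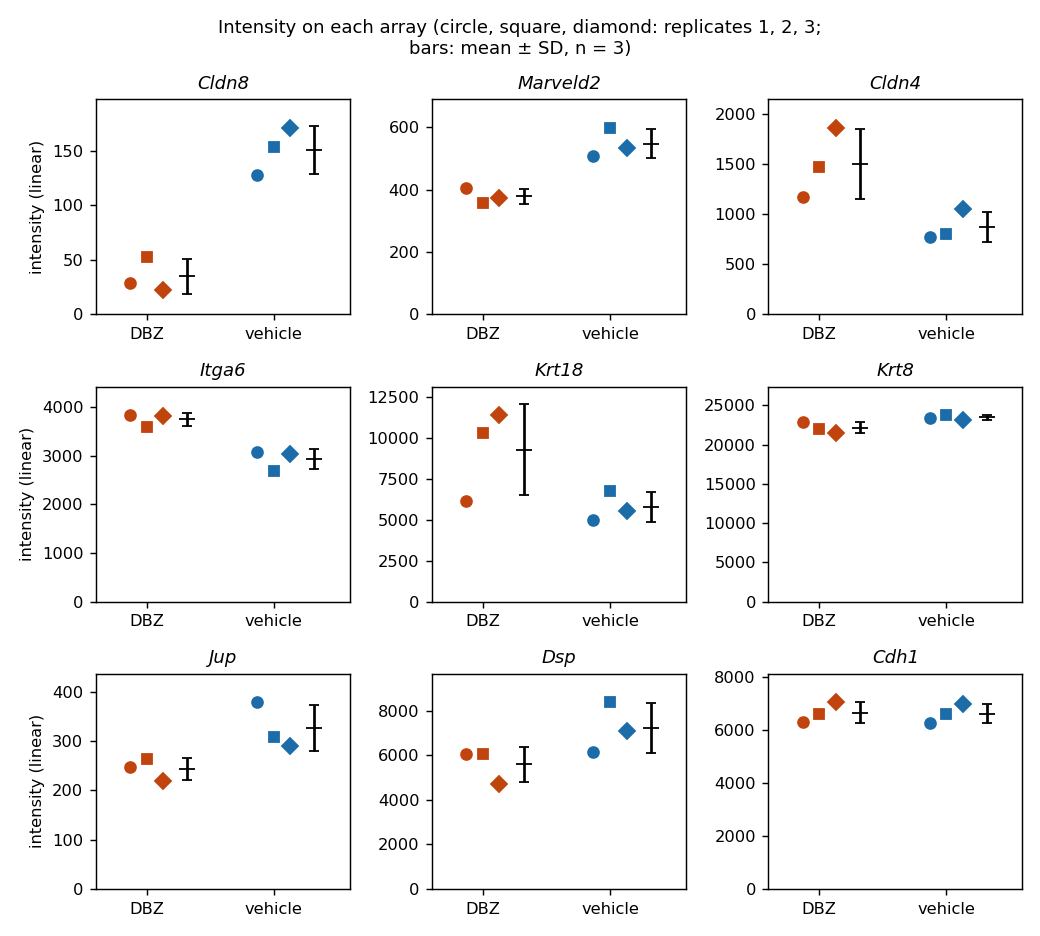
Linear intensity of 9 genes on each array, with DBZ arrays left of vehicle arrays; circles, squares and diamonds are replicates 1, 2 and 3, and bars give mean ± SD (n = 3). Cldn8, Marveld2 and Jup lie lower in all DBZ arrays, Cldn4 and Itga6 higher, Cdh1 shows no separation, and Krt18 of DBZ replicate 1 lies within the vehicle range.

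Cldn4 and Tjp3 are described here because of their values, outside the rule for naming genes. Cldn4, a barrier-forming claudin, had 1171, 1468 and 1867 units in DBZ replicates 1, 2 and 3, against 777, 802 and 1051 units in vehicle replicates 1, 2 and 3. All DBZ arrays lay above all vehicle arrays, at a difference of 0.75 ± 0.20 (SE, n = 3 per group; limma, adjusted p = 0.077). It passed without DBZ replicate 1 (0.92; limma, adjusted p = 0.034) and with dim genes left out (limma, adjusted p = 0.046). Without any other array it did not pass, at 0.59 (limma, adjusted p = 0.14) without DBZ replicate 3 and up to 0.89 (limma, adjusted p = 0.13) without vehicle replicate 3. Tjp3 encodes ZO-3, a scaffold of the tight junction plaque, and averaged 1123 ± 149 units in DBZ and 1485 ± 140 units in vehicle arrays (SD, n = 3), without overlap. Its difference was -0.40 ± 0.12 (SE; limma, adjusted p = 0.096). It passed without DBZ replicate 1, at -0.51 (limma, adjusted p = 0.036).

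The remaining 13 genes of the tight junction, which include occludin and Marveld3, did not pass. Cldn7, a claudin found along the lateral membrane as well, reached 55.4% of an array's highest intensity. It had 15231, 15878 and 14166 units in DBZ replicates 1, 2 and 3 and 13619, 15147 and 15195 units in vehicle replicates 1, 2 and 3. The groups overlapped, and the difference was 0.04 with a 95% interval of -0.14 to 0.23 (limma). The pore-forming claudins Cldn2 and Cldn15 stood at 0.06 and -0.10, with intervals of -0.11 to 0.24 and -0.51 to 0.32 (limma). Cldn2 is the claudin of cation and water pores in the crypt, and Cldn15 passes sodium in the small intestine. Barrier or less studied claudins lay between -0.30 for Cldn23 and 0.42 for the dim Cldn1, with Cldn3 at -0.17 and Cldn12 at 0.16. Tjp1, which encodes ZO-1, was at -0.20, cingulin (Cgn), which links the plaque to the cytoskeleton, at -0.24, junctional adhesion molecule A (F11r) at 0.12 and the virus receptor and adhesion protein Cxadr at 0.23.

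From the list 3 pairs of neighbouring genes were compared, chosen with earlier results of these data known. Marveld2 and Ocln lie 43.2 kb apart on chromosome 13, Cldn4 and Cldn3 39.3 kb apart on chromosome 5, and Krt18 and Krt8 23.9 kb apart on chromosome 15, with no other protein-coding start between them in the RefSeq table (GRCm38.p6). The difference of Marveld2 minus that of Ocln was -0.34, of Cldn4 minus that of Cldn3 0.92, and of Krt18 minus that of Krt8 0.73. The first 2 pairs showed no overlap between DBZ and vehicle arrays, at a two-sided exact permutation p = 0.1, the smallest that 3 arrays against 3 allow, and the keratin pair overlapped (exact permutation p = 0.2). Adjusted over the 3 pairs the exact permutation values were 0.15, 0.15 and 0.20, so no pair passed, as none could at this number of arrays. How often other pairs of genes show no overlap was not computed.

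The promoters of the 3 pairs are shown because the partners share a neighbourhood. Of the 41 genes 27 had an entry among the RefSeq promoters (GRCm38.p6). The 250 bases before the start are printed 5′ to 3′ on the gene's strand, at chr13:100616972-100617221 (minus) for Marveld2, chr13:100552719-100552968 (minus) for Ocln, chr5:134946935-134947184 (minus) for Cldn4, chr5:134985964-134986213 (plus) for Cldn3, chr15:102027966-102028215 (plus) for Krt18 and chr15:102004343-102004592 (minus) for Krt8. Capitals mark TGGGAA, the core bound by the Notch partner RBPJ, CAGCTG, an E-box of Atoh1 and other helix-loop-helix factors, and CACCTG, an E-box of Snail and Zeb repressors, on either strand.
Marveld2: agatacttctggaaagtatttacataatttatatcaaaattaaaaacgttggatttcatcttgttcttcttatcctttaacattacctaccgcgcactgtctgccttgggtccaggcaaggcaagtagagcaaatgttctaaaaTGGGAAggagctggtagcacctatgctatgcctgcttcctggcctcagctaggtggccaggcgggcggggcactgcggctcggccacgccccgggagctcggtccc
Ocln: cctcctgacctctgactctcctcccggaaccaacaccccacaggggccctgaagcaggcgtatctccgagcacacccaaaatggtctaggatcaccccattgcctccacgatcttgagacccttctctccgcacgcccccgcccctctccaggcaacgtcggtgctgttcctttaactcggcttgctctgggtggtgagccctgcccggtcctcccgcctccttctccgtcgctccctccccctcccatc
Cldn4: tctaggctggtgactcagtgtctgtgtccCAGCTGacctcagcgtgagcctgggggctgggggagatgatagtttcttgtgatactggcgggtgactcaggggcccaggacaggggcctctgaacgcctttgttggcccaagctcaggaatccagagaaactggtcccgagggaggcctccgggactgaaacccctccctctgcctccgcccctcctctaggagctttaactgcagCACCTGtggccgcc
Cldn3: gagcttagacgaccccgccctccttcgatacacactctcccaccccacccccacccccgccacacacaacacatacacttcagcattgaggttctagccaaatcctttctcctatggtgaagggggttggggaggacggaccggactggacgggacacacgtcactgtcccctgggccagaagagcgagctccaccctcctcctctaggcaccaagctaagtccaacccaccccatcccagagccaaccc
Krt18: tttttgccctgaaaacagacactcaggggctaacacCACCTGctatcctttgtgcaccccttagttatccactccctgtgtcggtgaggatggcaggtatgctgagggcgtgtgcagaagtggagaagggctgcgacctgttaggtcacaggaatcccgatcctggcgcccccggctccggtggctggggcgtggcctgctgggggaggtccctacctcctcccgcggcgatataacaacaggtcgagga
Krt8: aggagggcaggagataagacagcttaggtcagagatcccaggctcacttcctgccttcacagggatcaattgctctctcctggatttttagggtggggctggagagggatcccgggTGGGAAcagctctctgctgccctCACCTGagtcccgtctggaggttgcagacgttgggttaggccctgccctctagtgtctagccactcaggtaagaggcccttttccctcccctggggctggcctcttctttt

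Marveld2 and Krt8 each held 1 match to TGGGAA, which 21.6% of all 32851 promoters hold in these 250 bases and 14.8% of the 27. Cldn4 held 1 match to CAGCTG, found in 13% of all promoters and 14.8% of the 27. A match to CACCTG was present once each in Cldn4, Krt18 and Krt8, in 29.6% of the 27 and in 17.2% of all. Matches did not overlap each other in the printed sequences, and Ocln and Cldn3 held none. The GC box GGGCGG, not capitalised, occurred in 63.0% of the 27 and 32.7% of all promoters. For the 27 genes 1 entry per gene was searched, while the shares of all promoters counted every entry, so the sets are unlike. The 6 sequences held 50.4% to 64% G and C. Whether any of these letters is bound in these cells was not tested.

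The adherens junction genes differed by -0.24 to 0.08. None of the 5 passed, and none had an unadjusted p under 0.05 (limma). Cdh1, which encodes E-cadherin, had 6295, 6625 and 7068 units in DBZ replicates 1, 2 and 3, against 6275, 6608 and 6993 units in vehicle replicates 1, 2 and 3. The groups overlapped, and the difference was 0.01 with a 95% interval of -0.17 to 0.19 (limma). Liver-intestine cadherin (Cdh17), an intestinal cadherin outside the classical junction, was at 0.08 and alpha-catenin (Ctnna1), which couples the complex to actin, at 0.06.

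Beta-catenin (Ctnnb1), both a junction protein and the effector of Wnt signalling, gave 10734, 11334 and 10571 units in DBZ replicates 1, 2 and 3, against 11265, 11331 and 11334 units in vehicle replicates 1, 2 and 3. DBZ and vehicle arrays overlapped, at -0.06 with an interval of -0.19 to 0.08 (limma). Its other 2 probe sets, at lower intensity, stood at 0.40 and 0.25, and the mean over its probe sets was 0.20 (limma, adjusted p = 0.42). In both, vehicle replicate 1 was the low vehicle array. The first had 211 units there, against 373 and 342 in vehicle replicates 2 and 3. The second had 1802 units there, against 2829 and 2985. The part of RNA quality in these probe sets was not tested. The catenin p120 (Ctnnd1), which holds cadherins at the membrane, had 1222, 1016 and 873 units in DBZ replicates 1, 2 and 3, against 1172, 1239 and 1235 units in vehicle replicates 1, 2 and 3. DBZ replicate 1 lay within the vehicle range and the other DBZ arrays below it, and the difference was -0.24 ± 0.12 (SE, n = 3 per group; limma, adjusted p = 0.28). For Ctnnd1 it was -0.12 without DBZ replicate 3, -0.36 without DBZ replicate 1 and -0.05 with a probe set less open to related transcripts.

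Desmosome genes were below 0 in all 6 cases, by small amounts, and none passed (limma, 1 at an unadjusted p under 0.05). Their median was -0.20, and for 4 of the 6 all DBZ arrays lay below all vehicle arrays, where 15.8% of all genes did so. The summed intensity of the 6 was 16377, 16064 and 13651 in DBZ replicates 1, 2 and 3 and 17210 to 19263 in vehicle arrays. Over 9 enterocyte genes, 8 of them below 0, it was 66779, 63522 and 52207 in DBZ replicates 1, 2 and 3 and 66550 to 70344 in vehicle arrays, and the part of enterocyte content in the desmosome values was not tested. Plakoglobin (Jup), the catenin that desmosomes share with adherens junctions, had 247, 262 and 218 units in DBZ replicates 1, 2 and 3, against 379, 308 and 290 units in vehicle replicates 1, 2 and 3. No DBZ array of Jup reached the vehicle range, and the difference was -0.40 ± 0.12 (SE, n = 3 per group; limma, adjusted p = 0.10). Desmoplakin (Dsp), which anchors keratin filaments, had 6071, 6035 and 4695 units in DBZ replicates 1, 2 and 3, against 6155, 8387 and 7102 units in vehicle replicates 1, 2 and 3.

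The gap between the Dsp groups was narrow, with vehicle replicate 1 close to DBZ replicate 1, and the difference was -0.36 ± 0.15 (SE, n = 3 per group; limma, adjusted p = 0.19). A further bright Dsp probe set stood at -0.37. The desmosomal cadherins Dsg2 and Dsc2 were at -0.17 and -0.18, and the plakophilins Pkp2 and Pkp3, plaque proteins, at -0.10 and -0.22. For Dsg2 3 of the 5 other probe sets, and for Dsc2 and Pkp2 1 each, had a difference above 0. The shared sign thus holds for the brightest probe sets and not for every probe set. In each probe set above 0 vehicle replicate 1, the array with the highest actin ratio, was the lowest vehicle array. The brightest of them, of Dsg2, had 1593 units there, against 2574 and 2481 in vehicle replicates 2 and 3. The part of RNA quality in these signs was not tested. Of 9 measured genes of a wider desmosome list 0 passed (limma, 1 at an unadjusted p under 0.05). Of these, 3 lay below the array median on all arrays, and of the other 6 genes 5 were below 0. The one with the smallest p was Kazn, which encodes kazrin of the plaque, at 79.7 ± 3.51 units in DBZ and 96.4 ± 3.36 units in vehicle arrays (SD, n = 3; limma, adjusted p = 0.075).

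None of the 3 keratins of simple epithelia passed (limma, 2 at an unadjusted p under 0.05, as were 26.3% of all genes). Krt8, the type II keratin that pairs with Krt18 or Krt19, had 22849, 22025 and 21453 units in DBZ replicates 1, 2 and 3, against 23359, 23786 and 23181 units in vehicle replicates 1, 2 and 3. The DBZ arrays were lower without overlap by a small amount, -0.08 with an interval of -0.22 to 0.05 (limma), in a range where the arrays approach their ceiling. Its other probe sets stood at -0.06 and -0.09.

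Krt18, a type I partner, had 6171, 10299 and 11442 units in DBZ replicates 1, 2 and 3, against 4993, 6795 and 5544 units in vehicle replicates 1, 2 and 3. DBZ replicate 1 lay within the vehicle range and the other DBZ arrays above it, so the difference of 0.65 ± 0.25 did not pass (SE, n = 3 per group; limma, adjusted p = 0.17). Without DBZ replicate 1 it was 0.92 and passed (limma, adjusted p = 0.023). Krt19, the other type I partner, had 10772, 10328 and 9504 units in DBZ replicates 1, 2 and 3, against 10638, 14232 and 12845 units in vehicle replicates 1, 2 and 3. Its groups overlapped through vehicle replicate 1, and the difference was -0.29 ± 0.12 (SE; limma, adjusted p = 0.18). With array weights it passed, at -0.33 (limma, adjusted p = 0.049).

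Krt7, a keratin of glandular and ductal epithelia outside the 41 genes, was the 1 keratin that rose among 11 on a wider list. It had 2668, 3957 and 4332 units in DBZ replicates 1, 2 and 3, against 1290, 1883 and 1576 units in vehicle replicates 1, 2 and 3. All DBZ arrays lay above all vehicle arrays, at 1.18 ± 0.22 (SE, n = 3 per group; limma, adjusted p = 0.041). In Krt7, as in Krt18 and Cldn4, DBZ replicate 1 was the lowest DBZ array. That array was the lowest DBZ array for 33.3% of all genes and for 9 of the 41.

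Marker lists of 3 cell types are given beside these genes. Over 10 goblet genes the summed intensity was 137725, 162302 and 172310 in DBZ replicates 1, 2 and 3 and 109464 to 117488 in vehicle arrays. Over 10 enteroendocrine genes it was 5373, 13210 and 12752 in DBZ replicates 1, 2 and 3 and 3172 to 4078 in vehicle arrays. Mesothelial cells also make simple keratins, and their 9 measured markers summed to 916, 516 and 1422 in DBZ replicates 1, 2 and 3 and 408 to 435 in vehicle arrays. Upk1b had 272 to 304 units in vehicle arrays, and the other markers of the 9 lay below the array median there. The part of other cell types in the values of Krt18, Krt7 and Cldn4 was not tested.

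**Figure D3:**
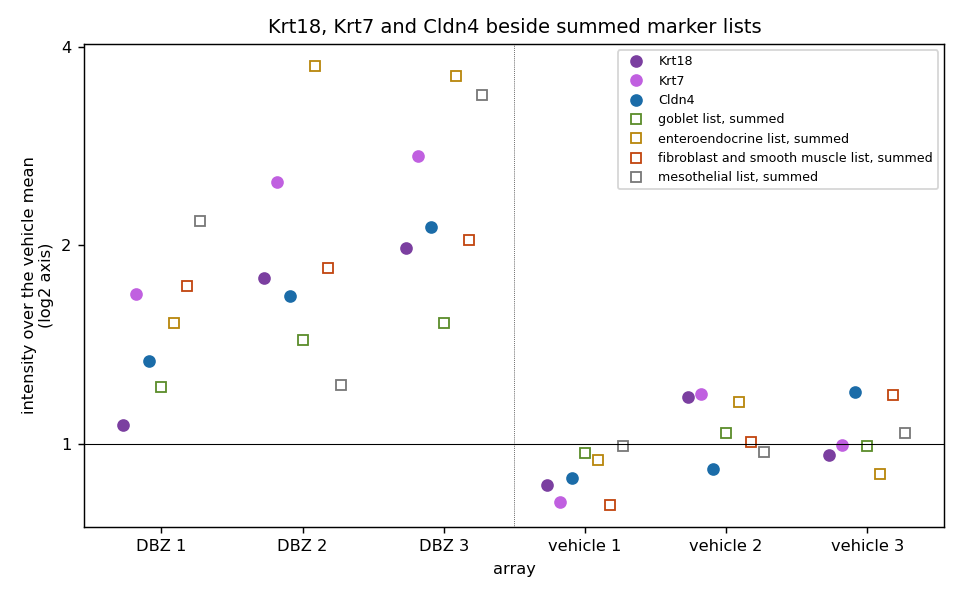
Intensity on each array divided by the vehicle mean, on a log2 axis, for Krt18, Krt7 and Cldn4 (filled circles) and for the summed intensity of 4 marker lists (open squares), with DBZ arrays on the left. DBZ replicate 1 is the lowest DBZ array for the 3 genes and the goblet, enteroendocrine and fibroblast lists, while the mesothelial list is lowest in DBZ replicate 2. Over all genes, DBZ replicate 1 is the lowest DBZ array for 33.3%.

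Among integrins, the laminin receptor chain Itga6 came closest to the test. It had 3845, 3594 and 3818 units in DBZ replicates 1, 2 and 3, against 3083, 2698 and 3036 units in vehicle replicates 1, 2 and 3. All DBZ arrays were higher, at 0.35 ± 0.07 (SE, n = 3 per group; limma, adjusted p = 0.052). Its other probe set stood at 0.44 and passed in the fit over all 34945 probe sets with a single symbol (limma, adjusted p = 0.048). The gene passed as the mean of both (0.40; limma, adjusted p = 0.043), with array weights (0.32; limma, adjusted p = 0.030) and with arrays centred on their medians (0.35; limma, adjusted p = 0.0497). It did not pass after quantile normalization (limma, adjusted p = 0.094), with eBayes with trend (limma, adjusted p = 0.075) or with any 1 array left out (limma, adjusted p = 0.073 to 0.131). Adding 1 or 64 before the logarithm did not make it pass (limma, adjusted p = 0.065 and 0.058). Nor did leaving out dim genes or probe sets open to related transcripts (limma, adjusted p = 0.055 and 0.053). With eBayes with trend and robust (limma, adjusted p = 0.083) or a replicate block it was not called either.

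None of the 5 integrin genes passed, while 3 had an unadjusted p under 0.05 (limma), as did 26.3% of all genes. The common beta chain Itgb1 averaged 1132 ± 20.2 units in DBZ and 872 ± 182 units in vehicle arrays (SD, n = 3), a difference of 0.39 ± 0.16 (SE; limma, adjusted p = 0.18). The Itgb1 groups did not overlap. Vehicle replicate 1 was the low array of Itgb1, at 662 units against 974 and 980 in vehicle replicates 2 and 3, and without it the difference was 0.21 (limma, adjusted p = 0.14). Further Itgb1 probe sets stood at 0.46 and 0.27, also without overlap, and the rest were dim on all arrays. In the one at 0.27 vehicle replicate 1 was the highest vehicle array, at 165 units against 155 and 149 in vehicle replicates 2 and 3. Itgb4, which joins Itga6 in hemidesmosomes, was at 0.01 with an interval of -0.24 to 0.25 (limma). Itga3, another laminin receptor chain, had 304, 344 and 326 units in DBZ replicates 1, 2 and 3, against 389, 402 and 348 units in vehicle replicates 1, 2 and 3. Its DBZ arrays lay just below the vehicle arrays, at -0.21 ± 0.08 (SE; limma, adjusted p = 0.16), and both other probe sets were below 0 as well. The collagen receptor chain Itga2 was dim throughout, at 0.05.

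The 5 further surface and cortex genes were among the brightest of the array, and none passed (limma, 1 at an unadjusted p under 0.05). Ceacam1, an adhesion molecule of the immunoglobulin family at the apical surface, had 16521, 16681 and 17831 units in DBZ replicates 1, 2 and 3, against 15500, 12855 and 15313 units in vehicle replicates 1, 2 and 3. The DBZ arrays were all higher, at 0.23 ± 0.09 (SE, n = 3 per group; limma, adjusted p = 0.18). This gene depended on the probe set that stood for it.

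All 8 Ceacam1 probe sets were above 0, and 7 showed no overlap between the groups. A probe set at 4123 ± 494 units in DBZ and 2181 ± 560 units in vehicle arrays (SD, n = 3) differed by 0.94 ± 0.19 (SE; limma, adjusted p = 0.058), and one at 6362 units in DBZ and 3624 units in vehicle arrays by 0.83 ± 0.18 (SE; limma, adjusted p = 0.068). Another, at 13868 units in DBZ and 9134 units in vehicle arrays, differed by 0.61 ± 0.10 and passed in the fit over all probe sets (SE; limma, adjusted p = 0.044). It also passed as the gene's probe set once those open to related transcripts were left out (limma, adjusted p = 0.037). Mouse Ceacam1 and Ceacam2 are closely related, and 2 more probe sets carried both symbols and were not used. A separate Ceacam2 probe set was dim, at 41.2 ± 3.54 units in DBZ and 38.7 ± 4.49 units in vehicle arrays (SD, n = 3). Ceacam10 of the same family was bright, at 4398 ± 1233 units in DBZ and 1819 ± 766 units in vehicle arrays (SD, n = 3). Its groups did not overlap, at a difference of 1.31 (limma, adjusted p = 0.069). Whether signal near the ceiling, related transcripts or splice forms set the probe sets apart was not tested.

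**Figure D4:**
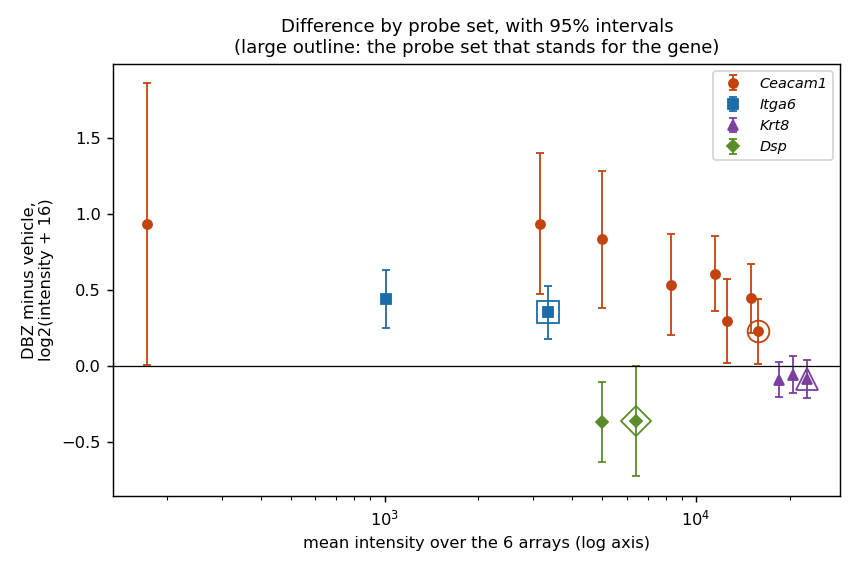
Difference between DBZ and vehicle arrays, with limma's 95% intervals, against mean intensity over the 6 arrays (log axis) for each probe set of Ceacam1, Itga6, Krt8 and Dsp that was not dim on all arrays. The brightest Ceacam1 probe set, outlined, has the smallest difference of its gene, at 0.23, and others reach 0.94.

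Epcam, the adhesion molecule by which epithelial cells are commonly sorted, had 19609, 19198 and 17187 units in DBZ replicates 1, 2 and 3, against 16997, 19018 and 18807 units in vehicle replicates 1, 2 and 3. Its groups overlapped, at 0.03 with an interval of -0.17 to 0.23 (limma), and a dimmer probe set stood at -0.28. Galectin-4 (Lgals4), a lectin of the apical surface, had 21894, 21724 and 21111 units in DBZ replicates 1, 2 and 3, against 18845, 22036 and 21810 units in vehicle replicates 1, 2 and 3. The groups overlapped, with vehicle replicate 1 lowest, and the interval was -0.14 to 0.24 around 0.05 (limma).

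Vil1, which encodes the actin bundler villin of microvilli, had 13180, 12053 and 9209 units in DBZ replicates 1, 2 and 3, against 12116, 12594 and 12893 units in vehicle replicates 1, 2 and 3. DBZ replicate 3 lay below the rest and the groups overlapped, at -0.14 with an interval of -0.47 to 0.19 (limma). Ezrin (Ezr), which ties the apical membrane to actin, was at -0.03 with an interval of -0.26 to 0.19 (limma).

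The wider lists of junction genes held more calls. Of 111 genes 99 were measured, and 9 rose and 2 fell (limma), 11.1% where 5.34% of all genes were called, with a median difference of 0.01. Without vehicle replicate 1, 2 or 3 none of these genes passed (limma), and without DBZ replicate 2 or 3 only 2 did. In the wider tight junction list 2 of 31 were called: Prkci, the atypical kinase of the Par polarity complex, fell by 0.41, and Amotl1, an angiomotin relative bound to junctions, rose by 0.54. Of 17 adherens junction genes 1 was called, the actin crosslinker Actn1, which had 2389, 2643 and 2998 units in DBZ replicates 1, 2 and 3, against 1512, 1511 and 1533 units in vehicle replicates 1, 2 and 3. All 3 DBZ arrays lay well above the vehicle arrays, at 0.80 ± 0.09 (SE, n = 3 per group; limma, adjusted p = 0.020).

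Of 5 measured gap junction genes 1 rose and 1 fell, while 4 were above 0, at a median of 0.41. Gja1, which encodes connexin 43, averaged 1561 ± 156 units in DBZ and 789 ± 96.1 units in vehicle arrays (SD, n = 3; limma, adjusted p = 0.022). Gjb1, the connexin 32 gene of many epithelia, averaged 127 ± 16.4 units in DBZ and 190 ± 16 units in vehicle arrays (SD, n = 3; limma, adjusted p = 0.048). The other 3 measured connexins did not pass but were above 0, Gjb5 at 0.53 and Gjc1 at 0.41 without overlap and Gjb2 at 0.11 with overlap. Among 18 integrin and hemidesmosome genes 3 rose: the collagen receptor chain Itga1 by 0.39, dystonin (Dst), a linker of hemidesmosomes, by 0.43, and alpha-parvin (Parva), an adaptor of integrin adhesions, by 0.55. Of 8 CEACAM, galectin and ezrin-family genes 2 rose, moesin (Msn) by 1.02 and galectin-2 (Lgals2) by 0.45, the second near the ceiling.

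Actn1, Gja1, Itga1, Parva and Msn are also made by connective tissue and smooth muscle, whose genes differed between the groups. All 10 fibroblast and smooth muscle genes were above 0 and 6 rose (limma), with a median of 1.00 and a summed intensity of 41725 to 48900 in DBZ and 19394 to 28522 in vehicle arrays. None of these markers was near 0: Col3a1 gave 2256 to 3322 units and Acta2 6388 to 7971 units in vehicle arrays. Their part in the 5 rises was not tested.

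Other cell types were read from lists of 10 genes each. Endothelial genes were above 0 in 10 of 10 cases, with 2 called and sums of 1180 to 1367 in DBZ and 870 to 1004 in vehicle arrays, and their own claudin Cldn5 was at 0.19. Adipocyte genes summed to 5738 to 13380 in DBZ and 2493 to 5153 in vehicle arrays, with 3 of 8 measured called. Neutrophil and myeloid genes, 2 of 9 called, summed to 5499 to 13460 in DBZ and 4909 to 5814 in vehicle arrays. Of these sums Lyz2 gave 3358 to 5752 units in DBZ and 3695 to 4170 units in vehicle arrays. The 2 called were S100a8 and S100a9, with S100a8 at 308 to 2746 units in DBZ and 16.9 to 24.0 units in vehicle arrays. Cd14 and Adgre1 also showed no overlap. Csf3r, Itgam, Cxcr2, Lyz2 and Ptprc overlapped, at 0.37, 0.68, 0.03, 0.06 and -0.16. Of the mesothelial genes 0 of 9 were called, with 7 at an unadjusted p under 0.05 (limma), as were 26.3% of all genes. Among them Upk3b had 47.0 to 290 units in DBZ and 18.1 to 20.9 units in vehicle arrays. In vehicle arrays all measured mesothelial genes but Upk1b lay below the array median. The part of these cell types in the small differences of the junction genes was not tested.

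Epithelial identity was present in both groups. The stem cell gene Lgr5 had 209 to 242 units in DBZ and 204 to 271 units in vehicle arrays, above the array median. Of 10 stem cell genes Sox9 rose, and Ascl2 and Olfm4 fell, the last to 18.6 to 35.9 units in DBZ, against 3627 to 5177 units in vehicle arrays. The list summed to 2713 to 2958 in DBZ and 6032 to 7946 in vehicle arrays with Olfm4, and to 2683 to 2922 in DBZ and 2405 to 2768 in vehicle arrays without it. Goblet and enteroendocrine genes rose in 4 and 3 of 10 cases. Of 8 measured Paneth genes 2 passed, Mmp7 at 1.37 and Pla2g2a at 2.18, while 5 were below 0. Among these Ang4 had 902 to 5511 units in DBZ and 15383 to 21936 units in vehicle arrays and Mptx1 188 to 738 units in DBZ and 1205 to 2969 units in vehicle arrays, without overlap (limma, adjusted p = 0.068 and 0.065). The Paneth list gave sums of 53192 to 96567 in DBZ and 79390 to 89173 in vehicle arrays. Of the enterocyte genes 0 of 9 were called, with 3 at an unadjusted p under 0.05 (limma), as were 26.3% of all genes. They summed to 52207 to 66779 in DBZ and 66550 to 70344 in vehicle arrays, and 8 of the 9 were below 0 at a median of -0.29. Fabp1 had 82.7 to 131 units in DBZ and 191 to 1133 units in vehicle arrays, while Alpi stood at -0.47, Anpep at -0.50 and Fabp2, near the ceiling, at -0.04.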

How the data were processed

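Expression was measured on 6 Affymetrix arrays, 3 DBZ and 3 vehicle, grouped by the sample titles. Per the labels' protocols, amplification and labelling used a kit that primes from the 3' end of total RNA. What the authors deposited is a linear intensity for each probe set, with arrays already at a common level. How background was removed and arrays were normalized is not given in the sources used here. Array medians differed by 0.03 on the log2 scale, below the limit of 0.1 set for normalizing again. With so few arrays, their number sets the precision.

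Of 45101 probe sets 34945 carried a single symbol and were no array control; 932 with several symbols and 9160 with none were left out of tests by gene. Symbols come from the platform annotation, of which 34741 were found by Entrez identifier in the RefSeq table. The gene's brightest probe set gave 18193 genes. Values were tested as log2(intensity + 16), which understates changes of dim genes, in R 4.3.3 with limma 3.58.1, a two-sided moderated test by lmFit and eBayes, and Benjamini-Hochberg adjustment over all genes at 0.05. The fit was tested on simulated data. SD and SE are over n = 3 arrays per group.

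The genes, lists and tests were chosen with earlier results of these data known. Full values are given for genes past the threshold, for the 2 smallest p of a group with fewer than 2 such genes, and for genes above 33.3% of an array's highest intensity; Cldn4, Tjp3 and Cdh1 were added after their values were seen. The promoter motifs were also chosen then. Of the wider lists, Nherf1 was matched by its older symbol and Pals1 under the symbol Mpp5. Alternatives are listed in the closing section.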

Additional observations from a re-analysis of the deposited data

How the results depend on the processing

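The counts over the 41 genes, over the wider lists and over all genes, the median difference and the differences of 20 named genes were computed again with arrays quantile-normalized or centred on their medians, pseudocounts of 1 and 64, dim genes left out, the mean of a gene's probe sets, no _x_at and _s_at probe sets, testing every probe set, eBayes with trend and with trend and robust, weights per array, a replicate block, and each array left out in turn. The median difference of the 41 genes stayed between -0.08 and -0.01 over the settings that keep all arrays, and between -0.07 and -0.01 when 1 array was left out. The number of the 41 that rose was 1 in place of 0 with centring (Itga6), the mean of probe sets (Itga6), array weights (Itga6), dim genes left out (Cldn4), _x_at and _s_at probe sets left out (Ceacam1) and the replicate block (Cldn4). The number that fell was 4 with array weights and 1 with the replicate block, in place of 2. Leaving out each array gave 0 to 2 that rose, 0 to 3 that fell and 16 to 22 without overlap, shares of 39% to 53.7% where 38.4% to 46.9% of all genes had none, and 19 to 2032 genes called over all genes. That last count was 440 with a pseudocount of 64, 1497 with dim genes left out and 2690 with array weights, in place of 972. Of the wider lists, added after seeing the data, 6 genes passed with centring, the mean of probe sets or no _x_at and _s_at probe sets, 5 with a pseudocount of 64 or every probe set tested, 7 with the replicate block, 17 with dim genes left out and 23 with array weights, in place of 11, and 0 to 15 with 1 array left out. Without vehicle replicate 1, 2 or 3 none of the 41 passed (limma), and 49, 19 and 38 genes did in all.

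Whether the replicate numbers pair the samples is not settled. Deviations of same-numbered arrays correlated at -0.0086, 0.246 and 0.200 across genes, and those of differently numbered arrays at -0.289 to 0.0136. With the replicate block Marveld2 kept its difference of -0.51 but no longer passed (limma, adjusted p = 0.066). Among the 20 genes, signs turned for Ctnnb1, at 0.20, and Epcam, at -0.12, as the mean of probe sets, and for Cdh1, at -0.0192 after quantile normalization and -0.0440 with array weights. Leaving out 1 array moved Cdh1 between -0.0355 and 0.0479, Epcam between -0.0214 and 0.0882, Cldn7 between -0.00915 and 0.0875, Lgals4 between -0.0231 and 0.0896, and Vil1 between -0.25 and 0.00844. The cause of these changes was not tested.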
